A study of Homo sapiens with 4 samples.

Results

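The genes examined were MYC, the D-type cyclin genes CCND1, CCND2 and CCND3, and TIGAR, the neighbour of CCND2 on chromosome 12. These 5 were chosen by name from the 19970 protein-coding genes that RefSeq places on the autosomes and X. For each, all peaks of both BCL6 peak lists were taken whose summit lay in the gene or within 100 kb of either annotated end, and a region lying in more than 1 window was counted once. In all, 5 of 5230 replicate 1 peaks and 3 of 3529 replicate 2 peaks met this rule. They formed 6 of 7371 merged regions, of which 2 held a peak of each list and are called shared here, against 1311 shared regions genome-wide.

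The peaks come from CUT&RUN for the repressor BCL6 in SUDHL5 cells, an established line of diffuse large B-cell lymphoma, in which an antibody tethers a nuclease that releases the bound chromatin. The labels give 2 biological replicates with the BCL6 antibody and 2 with normal rabbit IgG, grown in RPMI medium with serum, and name no genotype, treatment or time for any of them. The study concerns a molecular glue joining lysine acetyltransferases to BCL6, but no sample analysed here was labelled as treated. IgG values were not analysed here, and no difference between conditions was tested. Each peak is set against the local background of its peak calling, for which the control is not stated. Nothing in the files measures expression or cell identity.

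MYC encodes a transcription factor that drives cell growth and division, and it is kept low in most germinal centre B cells. D-type cyclins bind and activate the kinases CDK4 and CDK6, which phosphorylate the retinoblastoma protein and release E2F factors for entry into S phase. BCL6 is a zinc finger repressor of the germinal centre B cell, and both MYC and CCND2 have been described as genes it represses. TIGAR encodes a phosphatase that lowers fructose 2,6-bisphosphate and thereby slows glycolysis.

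MYC carried a single BCL6 region, found in both replicates at the lower annotated end of the gene. The gene spans chromosome 8 from 127735434 to 127742951, and the region spans 127734930 to 127736483. In replicate 1 the fold enrichment, which the authors give as summit signal relative to local background, was 3.01 with a −log10 q of 5.54. In replicate 2 these values were 5.62 and 11.8. Both summits lay inside the gene, 661 bp from its lower end in replicate 1 and 164 bp in replicate 2. The replicate 1 peak of 982 bp lay wholly within the replicate 2 peak of 1554 bp. Exons, introns and untranslated regions were not separated here.

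Both replicates had similar numbers of fragments at MYC. The summit pileup, the number of fragments over the summit recovered from the authors' values, was 39 in replicate 1 (95% Poisson interval 27.7 to 53.3) and 33 in replicate 2 (22.7 to 46.3). The local background differed more, at 12.3 in replicate 1 and 5.05 in replicate 2, where the medians of all peaks were 5.90 and 4.63. With the background held fixed, counting error gives a range of 2.16 to 4.09 for the fold enrichment of replicate 1 and of 3.92 to 7.82 for that of replicate 2. These ranges overlap slightly, and no replicate test of the difference exists with 1 value each. Fragments copied by PCR are not independent molecules, so all such intervals cover counting error only.

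By rank of fold enrichment and of −log10 q, the MYC peak stood higher in replicate 2. There it was number 297 of 3529 by fold enrichment and number 240 by −log10 q, while in replicate 1 it was number 3895 and number 1556 of 5230. The log2 ratio of replicate 2 over replicate 1 was 0.90 at MYC. Across the 1311 shared regions the median of this log2 ratio was 0.05 with an SD of 0.50, and 4.42% of regions had a larger one. The summits of the replicates lay 497 bp apart, where the median distance was 91 bp and 9.99% of shared regions had a larger distance. MYC is thus shared by overlap of its peaks, and it was not counted as shared when summits had to lie within 200 bp.

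No further peak of either list lay in the 208 kb window of MYC. That window also holds the long non-coding RNA gene CASC11 and the near part of PVT1, the long non-coding RNA gene beside MYC. The next peak above the gene was 305 kb away inside PVT1, in replicate 2 only, with a fold enrichment of 4.50 and a pileup of 21. Below the gene, the next peak was 2230 kb away, inside the non-coding gene TRIB1AL, and was found in replicate 1 only.

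**Figure D1:**
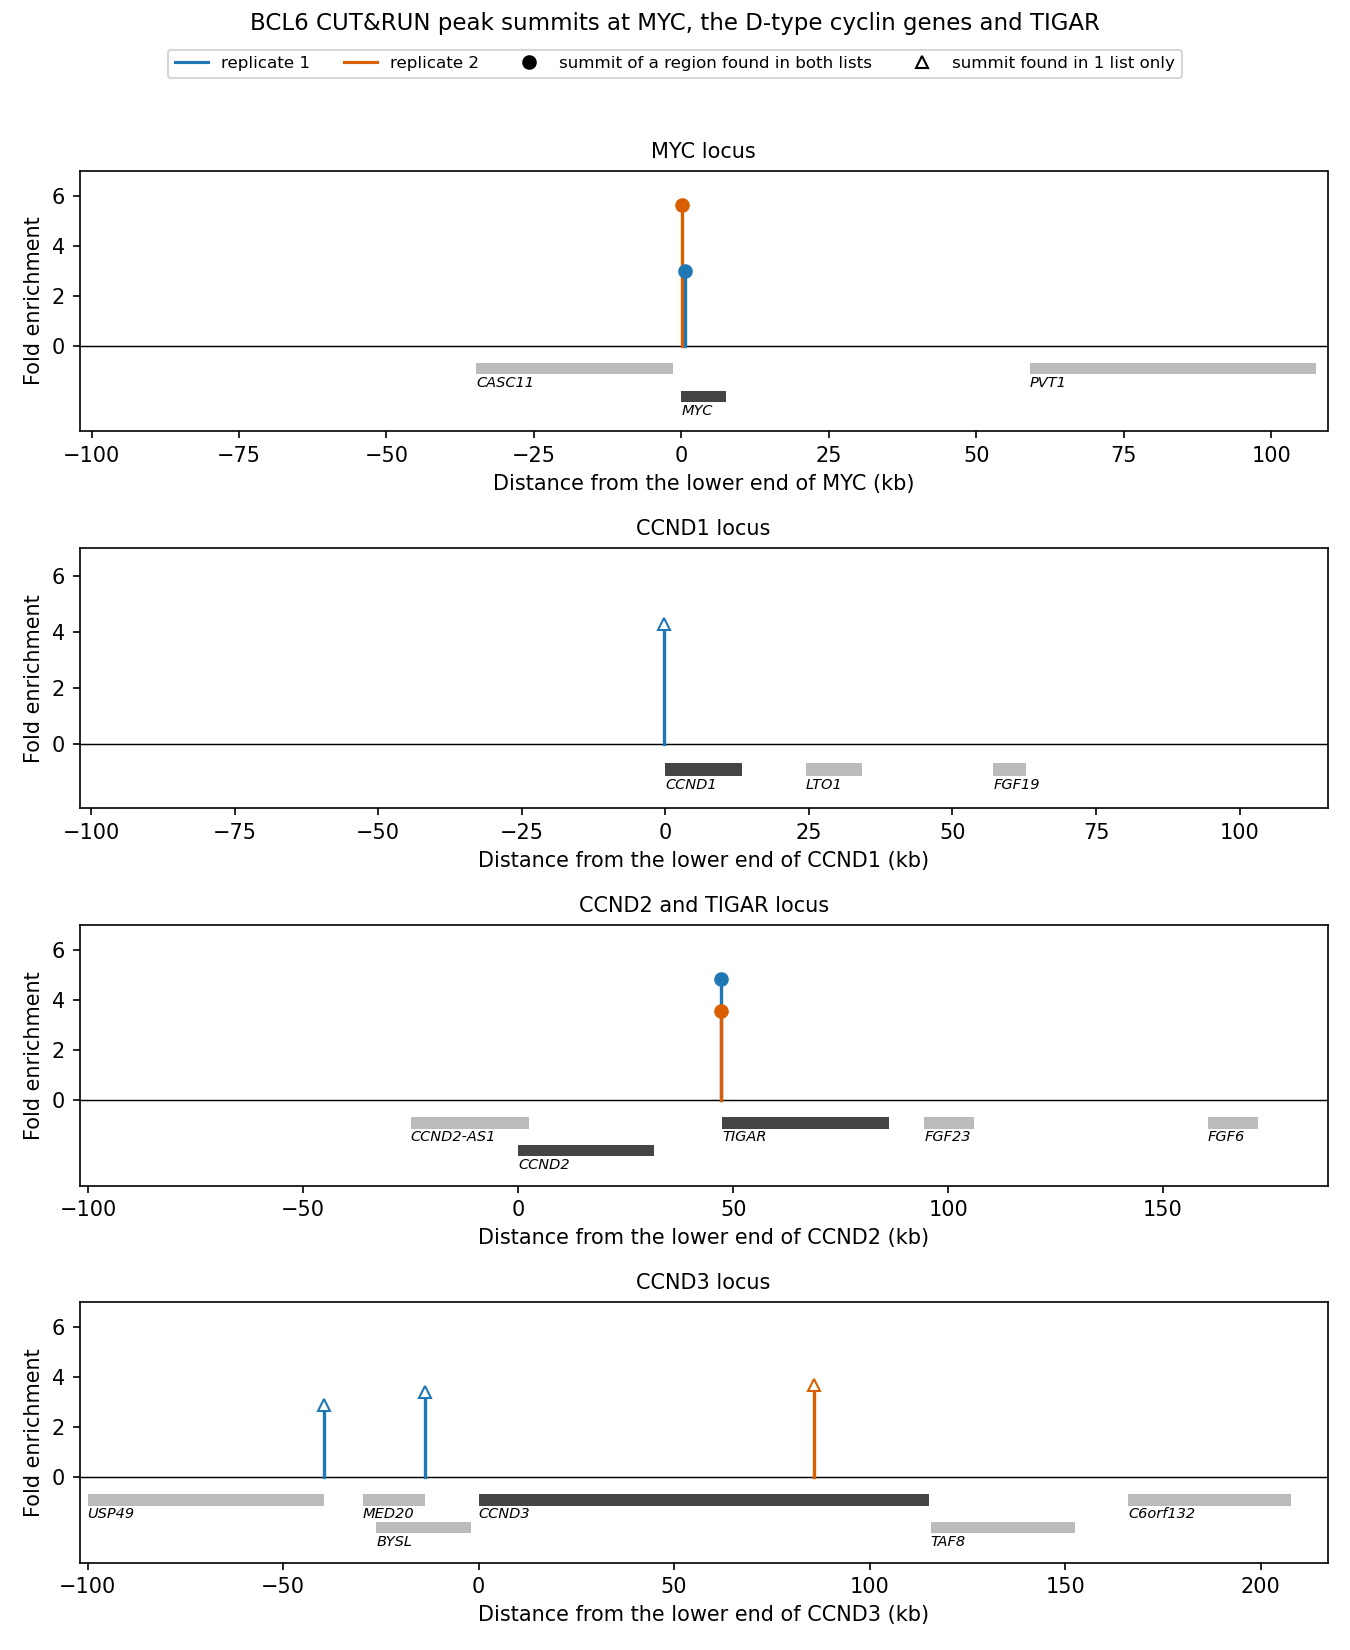
BCL6 peak summits around MYC, CCND1, CCND2 with TIGAR, and CCND3, by distance from the lower annotated end of the first-named gene (kb, horizontal) and fold enrichment (ratio, vertical). Filled circles are summits of shared regions and open triangles are summits of 1 list; boxes below are genes, cut off where they leave the window, with LOC-named loci, microRNA genes and pseudogenes left out. The shared summits sit at the ends of MYC and TIGAR, and the 3 summits of the CCND3 window lie apart from one another.

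Among the D-type cyclins, CCND1 is the one switched on by translocation in mantle cell lymphoma and is hardly used by normal B cells. The gene spans chromosome 11 from 69641156 to 69654474. A replicate 1 peak from 69640798 to 69641089 had its summit 281 bp below the lower end of CCND1. The fold enrichment was 4.29 with a −log10 q of 2.68, and the pileup was 10 (95% Poisson interval 4.80 to 18.4) over a background of 1.56. Of the replicate 1 peaks, 23.1% had a larger fold enrichment but 97.8% had a larger pileup. The ratio therefore rests on few fragments, and counting error puts it between 2.26 and 7.57.

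Replicate 2 had no peak in the CCND1 window, and its nearest peak was 2027 kb away. Among the 307 replicate 1 peaks with a pileup of 8 to 12, 5 were found in replicate 2 (1.63%, Wilson 95% interval 0.698 to 3.76). At this depth, the lack of a second peak does not show that BCL6 was absent from CCND1. Nor does the replicate 1 peak alone show that BCL6 was present there. The nearest shared region was 2840 kb from the gene. No peak lay at LTO1 or FGF19, which share the window.

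CCND2, which encodes cyclin D2, spans chromosome 12 from 4273762 to 4305353 and had no peak of either list inside it. The region in its window lay 15.5 kb beyond its upper end and belonged by position to TIGAR, which spans 4321213 to 4360028 and whose start it covers. This shared region ran from 4320416 to 4321566. The replicate 1 peak had a fold enrichment of 4.85 and a −log10 q of 20.7, and the replicate 2 peak 3.57 and 6.99. TIGAR is read from its lower end, and the summits lay 387 bp and 358 bp before its RefSeq start. The summits of the replicates were 29 bp apart, closer than in 76.9% of shared regions.

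The pileup at TIGAR was 66 in replicate 1 (95% Poisson interval 51.0 to 84.0), number 68 of 5230 in that list. In replicate 2 it was 37 (26.1 to 51.0), number 286 of 3529. By fold enrichment the TIGAR peak was number 684 in replicate 1 and number 2054 in replicate 2, with 13.1% and 58.2% of peaks higher. By −log10 q these ranks were 116 and 637. The backgrounds were 12.8 and 9.64, above the medians of all peaks in both lists. Pileups are not scaled for library size, which is unknown. Counting error gives ranges of 3.77 to 6.15 for replicate 1 and 2.54 to 4.89 for replicate 2, which overlap. The log2 ratio of replicate 2 over replicate 1 was -0.44, within 1 SD of the median of all shared regions. By the smaller of both fold enrichments, TIGAR was number 499 and MYC number 842 of the 1311.

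The 250 bases before the TIGAR start (RefSeq, GRCh38.p14, chr12:4320963-4321212, plus strand) are shown because the shared region covers them. All 250 bases lay in the replicate 1 peak, none lay in the replicate 2 peak, and both summits lay before the first base. Their GC content was 76.8%, against a median of 58.4% over 34961 RefSeq promoters of that length.
TIGAR: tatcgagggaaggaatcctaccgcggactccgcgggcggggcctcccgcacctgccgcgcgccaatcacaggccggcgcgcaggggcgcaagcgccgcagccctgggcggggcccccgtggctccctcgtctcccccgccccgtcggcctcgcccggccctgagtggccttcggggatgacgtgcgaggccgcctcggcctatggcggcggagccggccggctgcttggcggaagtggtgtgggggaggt

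The peaks differed in extent as well. That of replicate 1 was 983 bp wide and ran into the gene, whereas that of replicate 2 was 521 bp wide and ended before it. Their overlap of 353 bp was 35.9% of the first and 67.8% of the second. A reciprocal overlap of at least 50% therefore left the region out. The files hold no measure that links the region to CCND2 or to TIGAR other than its position.

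**Figure D2:**
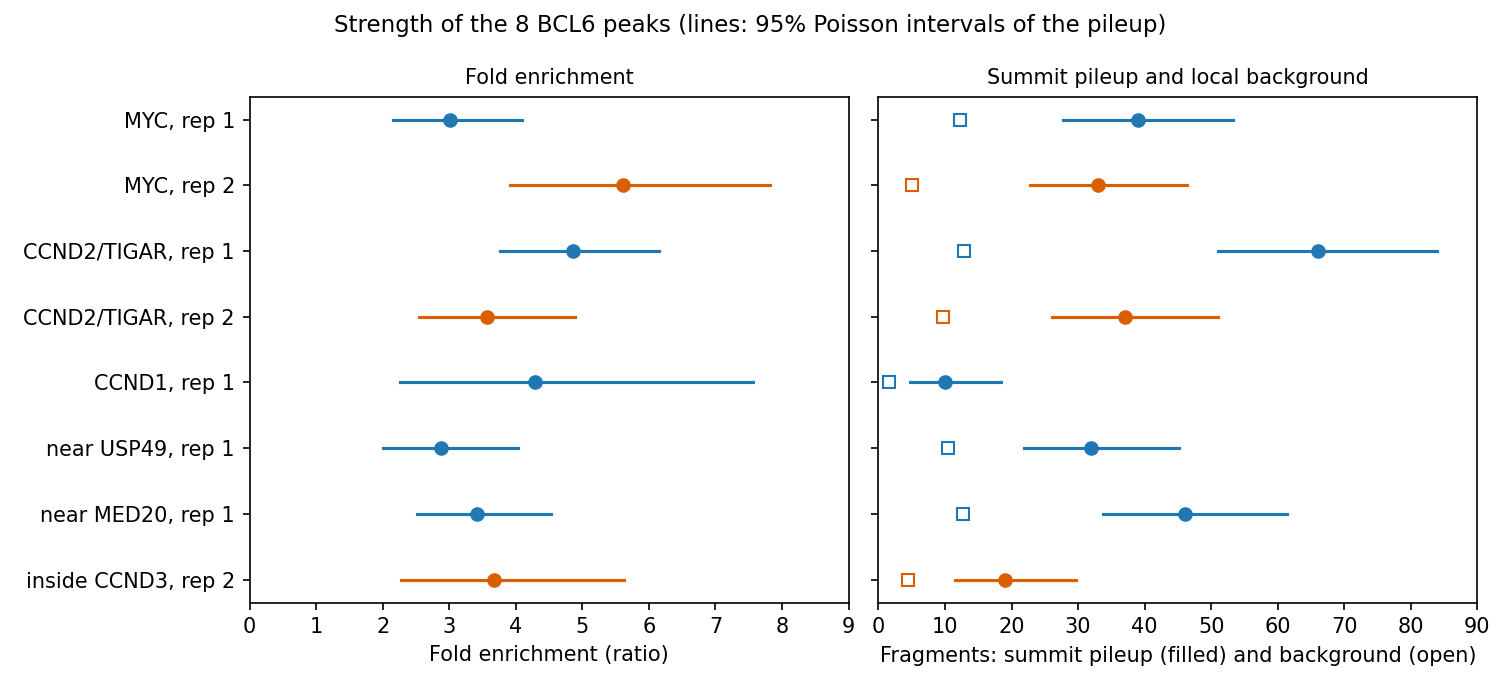
Fold enrichment (ratio, left) and summit pileup with local background (fragments, right) of the 8 peaks, blue for replicate 1 and orange for replicate 2. Lines are 95% Poisson intervals of the pileup, carried over to the ratio with the background held fixed; pileups run from 10 at CCND1 to 66 at CCND2/TIGAR, while the fold enrichments lie between 2.88 and 5.62.

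CCND3, the D-type cyclin on which germinal centre B cells mainly rely, spans chromosome 6 from 41934933 to 42050035, and its 315 kb window held 3 peaks, none of them shared. A replicate 2 peak from 42020420 to 42020685 was the only peak inside the gene. It lay 28.1 kb downstream of the upper of 3 RefSeq starts of CCND3, which is read from its upper end, and within the non-coding locus LOC105375059. Its fold enrichment was 3.67, its −log10 q 3.45 and its pileup 19 (95% Poisson interval 11.4 to 29.7). The nearest replicate 1 peak was 99.3 kb away. Of 933 replicate 2 peaks with a pileup of 17 to 21, 29.0% were found in replicate 1 (Wilson 95% interval 26.2 to 32.0).

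The other two peaks, both of replicate 1, lay at the starts of neighbouring genes. One, from 41920803 to 41921393, had its summit between the opposite-facing starts of BYSL and MED20, 200 bp before that of BYSL and 356 bp before that of MED20. The annotated span of BYSL, which reaches beyond that start, also covers it. BYSL encodes a factor for assembly of the small ribosomal subunit, and MED20 a subunit of the Mediator complex. The fold enrichment was 3.41 with a −log10 q of 8.50, and the pileup was 46 (95% Poisson interval 33.7 to 61.4). Of 125 replicate 1 peaks with a pileup of 44 to 48, 82 were found in replicate 2 (65.6%, Wilson 95% interval 56.9 to 73.4), and this one was not. It lay 13.6 kb from CCND3.

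A further replicate 1 peak, from 41895440 to 41896234, had its summit 143 bp before the start of USP49, a ubiquitin-specific protease, and 39.4 kb from CCND3. Its fold enrichment was 2.88, the lowest of the 8 peaks, with a −log10 q of 3.99 and a pileup of 32 (95% Poisson interval 21.9 to 45.2). Of 550 replicate 1 peaks with a pileup of 30 to 34, 37.5% were found in replicate 2 (Wilson 95% interval 33.5 to 41.6). Neither annotated end of CCND3 had a peak within 1 kb. The nearest shared region was 402 kb away, inside TRERF1, with fold enrichments of 7.26 and 2.42.

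The 250 bases before each of these starts are printed because both summits fall within them (RefSeq, GRCh38.p14; BYSL chr6:41921249-41921498, plus strand; USP49 chr6:41895376-41895625, minus strand). Capitals mark the 21 bases centred on the replicate 1 summit.
BYSL: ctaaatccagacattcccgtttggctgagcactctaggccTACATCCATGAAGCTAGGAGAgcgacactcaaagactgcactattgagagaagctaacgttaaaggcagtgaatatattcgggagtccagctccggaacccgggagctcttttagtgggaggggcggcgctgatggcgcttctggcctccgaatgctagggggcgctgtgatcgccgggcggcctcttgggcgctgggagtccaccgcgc
USP49: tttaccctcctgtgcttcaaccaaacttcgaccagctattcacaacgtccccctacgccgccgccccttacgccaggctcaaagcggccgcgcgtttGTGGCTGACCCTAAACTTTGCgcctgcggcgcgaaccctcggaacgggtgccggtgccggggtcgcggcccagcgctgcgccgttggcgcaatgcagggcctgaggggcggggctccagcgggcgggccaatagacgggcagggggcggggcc

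Matches to the BCL6 and STAT type motif were searched on both strands in these 3 promoters. TTCCTAGAA was found in none, nor was TTCCTNGAA or TTCNNNGAA, each form being contained in the next. Over all 34961 promoters of that length, the shares with a match were 0.309%, 1.36% and 6.57%. At such shares, finding no match in 3 promoters is usual and decides nothing about BCL6 binding. The TIGAR bases searched held neither summit of its shared region. The table gave no promoter for MYC, CCND1 or CCND2, and no promoter of CCND3 lay under a peak.

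The same rule was applied to all protein-coding genes. A shared region lay within 100 kb of MYC, CCND2 and TIGAR, which is 3 of 5 genes but only 2 regions, where 15.1% of all genes had one. All 5 had a replicate 1 peak in that window (background 40.6%), and 4 of 5 had a replicate 2 peak (background 32.8%). Inside the gene or within 1 kb of it, MYC and TIGAR had a shared summit, against 4.47% of all genes. On that rule MYC, CCND1 and TIGAR had a replicate 1 peak (3 of 5, background 13.9%), and MYC, CCND3 and TIGAR a replicate 2 peak (3 of 5, background 10.5%). With 5 genes of which 2 share a region, these counts are descriptions and were not tested. CCND3 had 3 peaks over both lists, a number reached by 18.6% of genes. Its window was 315 kb long, against a median of 224 kb over all genes, and no share was adjusted for length. The 2 peaks each of MYC, CCND2 and TIGAR were reached by 30.5% of genes, and the 1 of CCND1 by 49.2%.

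Of the 6 merged regions, 5 had summits less than 1 kb from where a protein-coding gene begins or ends, namely those at MYC, CCND1, TIGAR, MED20 and USP49. Among all peaks with a summit in or within 100 kb of a protein-coding gene, 29.9% of replicate 1 and 32.8% of replicate 2 were that close, and among such shared regions 35.6%. With 6 regions this is a description and was not tested. The peak inside CCND3, 29.4 kb from an end, was the exception.

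**Figure D3:**
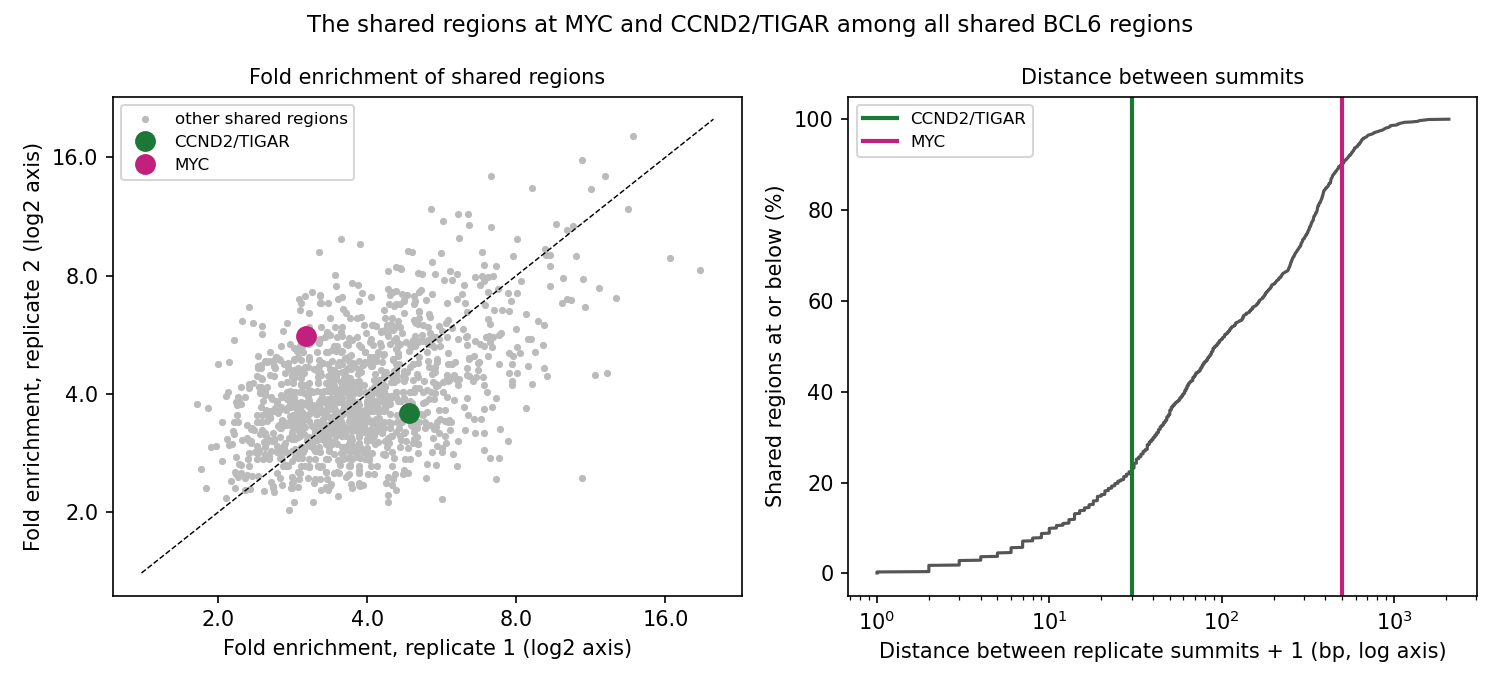
Left, fold enrichment in replicate 1 against replicate 2 (log2 axes) for 1311 shared regions, with a dashed line of equality. Right, the cumulative share of shared regions by distance between replicate summits plus 1 bp (log axis). MYC lies above the line with summits 497 bp apart, and CCND2/TIGAR below it with summits 29 bp apart.

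The shared regions whose values in both replicates were nearest to those of TIGAR were sought among 444 other shared regions within 1 kb of a gene end. Likeness was the distance between the pairs of log2 fold enrichments, over 2 replicates of 1 condition. The nearest were those at PIGF, a gene of glycosylphosphatidylinositol anchor synthesis (4.83 and 3.58), at NIN, encoding the centrosomal protein ninein (4.71 and 3.38), and at MTRF1, a mitochondrial release factor (4.91 and 3.33). Their pileups were 27 to 43 in replicate 1, where TIGAR had 66, and 27 to 36 in replicate 2, where TIGAR had 37.

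Other genes of these pathways were examined by the same rule, in 3 lists of 39 genes. A shared region lay within 100 kb of 9 of 39 (23.1%), beside 15.1% of all genes, and the difference was not tested. Its direction turned with some stricter rules. At a −log10 q minimum of 5, 2.56% of the listed genes and 6.78% of all genes had a shared region. The shares were 0% and 3.66% at a minimum of 10, and 10.3% and 10.6% with a reciprocal overlap of at least 50%. The direction held with summits within 200 bp (17.9% and 11.6%) and with windows of 10 kb (10.3% and 5.78%) and 50 kb (15.4% and 10.2%). The median window of the listed genes was 237 kb, and that of all genes 224 kb. In single lists, 26 of 39 had a replicate 1 peak (66.7%, background 40.6%) and 21 a replicate 2 peak (53.8%, background 32.8%), and 9 had no peak at all. The gene nearest to the strongest shared region was the listed gene itself for CDK6 and MXI1, and another gene for the other 7. Of those 7, MGA and MLXIP each had 2 shared regions, and the weaker but nearer of the 2 was not scored.

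Of 20 genes for kinase partners of D-type cyclins and the G1/S machinery, 4 had a shared region (20.0%). CDK6, the kinase partner of D-type cyclins, had one inside the gene, 3.25 kb from an end, with fold enrichments of 2.82 and 3.30. For E2F5, an E2F factor, the region lay 6.15 kb outside and 290 bp from an end of RBIS, with 3.63 and 2.46. Those of CDK2 and E2F2 lay 39.0 kb and 82.3 kb away, nearest to PYM1 and ID3. RB1 had 2 peaks in each list but no shared region, and CDK4 had a replicate 2 peak only. CCNE1, CCNA2, E2F3 and RBL2 had no peak in either list.

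In the MYC family and MAX network, 4 of 15 genes had a shared region (26.7%). MXI1, which encodes a MAX partner that opposes MYC, had one inside the gene, 1.76 kb from an end. Its fold enrichments were 2.93 and 5.66 and its pileups 25 and 27. ZBTB17 encodes the MYC partner MIZ-1. The strongest regions of MGA, MLXIP (each with 2) and ZBTB17 lay 73.8 to 97.7 kb from these genes, nearest to RPAP1, CFAP251 and SPEN. The other region of MGA and that of MLXIP lay nearer, inside the gene or within 50 kb of it. A nearer region of this kind enters the count of 4 listed genes within 10 kb. The genes nearest to these other regions are not given here. MAX had a peak in each list but no shared region, and MYCN, MXD4 and AURKA had no peak.

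Of the 4 PFKFB genes, whose enzymes make and break the fructose 2,6-bisphosphate that TIGAR lowers, PFKFB3 had a shared region 73.9 kb away, with fold enrichments of 3.04 and 3.41. That region was nearest to PRKCQ. PFKFB4 had a replicate 1 peak only, and PFKFB1 and PFKFB2 had none.

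**Figure D4:**
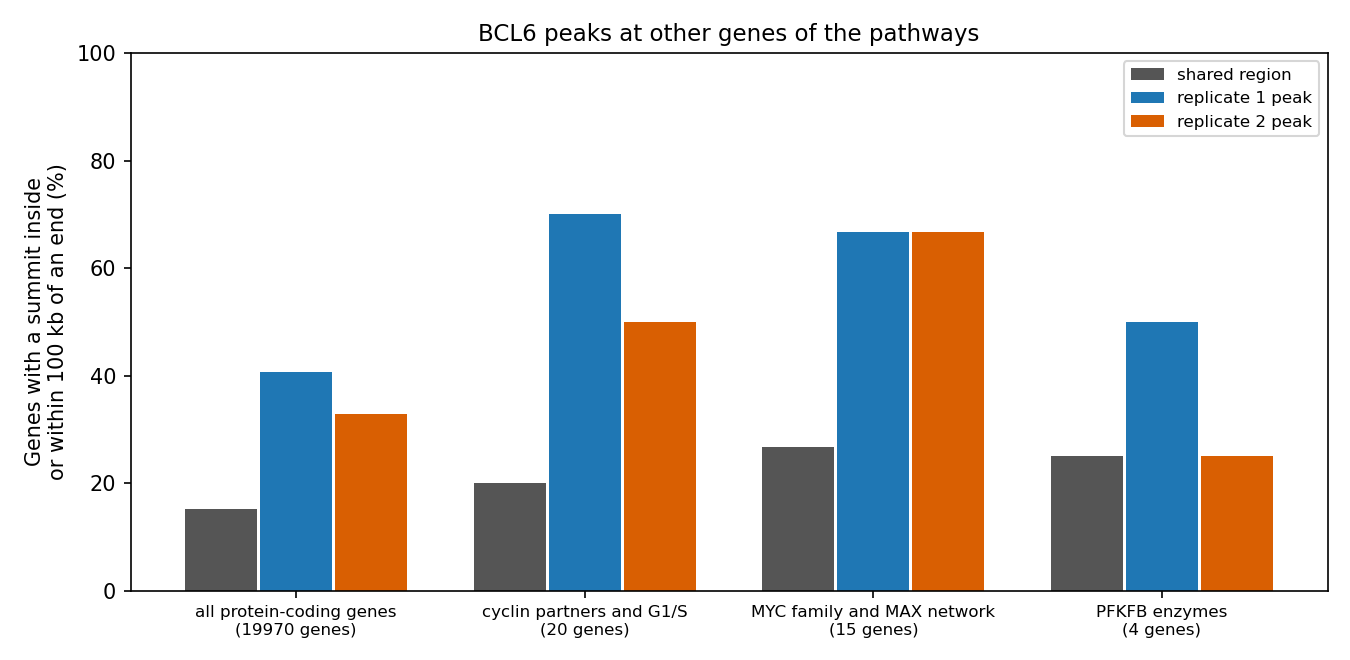
Share of genes with a summit inside the gene or within 100 kb of an end (percent, vertical), for all 19970 protein-coding genes and for the 3 lists. Grey bars are shared regions, blue replicate 1 peaks and orange replicate 2 peaks; for shared regions the lists lie at 20.0%, 26.7% and 25%, beside 15.1% of all genes.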

How the data were processed

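BCL6 CUT&RUN was deposited as 1 peak list per replicate. The submitters' processing notes name MACS2 (peak calling layout), Bowtie2, build hg38 and, beside these, bedtools, cutadapt, deepTools, FastQC, Picard and SAMtools; for all, versions and settings are not stated, nor is the peak caller's control. The authors deposited, per peak, a ratio (fold enrichment), −log10 of p and q, and a summit; the deposited score is 10 times the −log10 q and was only checked.

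Pileup and background were solved from fold = (pileup + 1) / (background + 1) and the Poisson p, within 0.001 for all 5230 and 3529 peaks on chromosomes 1 to 22 and X; recovery was tested on simulated data. Median pileups were 23 and 21; library totals are unknown. Neither list went below a −log10 q of 1.31. Peaks sharing at least 1 bp were merged, and a shared region took the summit of its peak with the highest −log10 q. Genes and promoters came from RefSeq GRCh38.p14. Groups came from sample titles. IgG values were not analysed here, so no test between groups was made.

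Named genes were those listed, up to 4 of each list with the largest fold enrichment (smaller of both replicates), the protein-coding gene nearest to each shared region and 3 genes of like values; list genes named for lacking a peak or a shared region, and other neighbours, were chosen after their values were seen. Genes and lists were chosen with earlier results of these data known. Alternatives covered windows of 10, 50 and 250 kb, −log10 q of at least 5 or 10, other sharing rules and each list alone. Python 3.11.15 with scipy 1.17.1 was used.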

Additional observations from a re-analysis of the deposited data

How the results depend on the processing

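The number of shared regions at MYC, the D-type cyclins and TIGAR was 2, and it was also 2 with windows of 10, 50 and 250 kb and with a −log10 q minimum of 5. It fell to 1 with a reciprocal overlap of at least 50%, which lost TIGAR and CCND2, to 1 with summits within 200 bp, which lost MYC, and to 0 with a −log10 q minimum of 10. With the window of 10 kb, CCND2 no longer had a shared region, while MYC and TIGAR each kept theirs. Using 1 list alone gave 3 to 5 regions, 3 without replicate 1 and 5 without replicate 2. Listed pathway genes with a shared region numbered 9 of 39; the count was 4 within 10 kb, 17 within 250 kb, 1 with −log10 q of at least 5, 0 with at least 10 and 4 with a reciprocal overlap of at least 50%. With 1 list alone it was 21 to 26. The share of all genes moved too, to 5.78% within 10 kb, 26.4% within 250 kb, 6.78% with −log10 q of at least 5, 3.66% with at least 10 and 10.6% with the reciprocal overlap. No paired analysis was possible because only values of the BCL6 group were analysed here; the labels also number 2 IgG replicates. The CCND1 peak had a pileup of 10, and library totals are unknown.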

Other observations

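Between 100 and 250 kb from these genes, 5 more peaks were found, each in 1 list only. Around CCND2 and TIGAR, replicate 1 had a peak inside FERRY3 with a fold enrichment of 4.50 and a pileup of 30, 175 kb above TIGAR. Replicate 1 also had one 1183 bp from RAD51AP1, a DNA repair gene (2.70, pileup 18), and one nearest to DYRK4, 245 kb above TIGAR (3.12, pileup 45). Replicate 2 had one 131 kb below CCND2 with no nearer protein-coding gene (4.03, pileup 15). Beside CCND3, replicate 2 had a peak inside TFEB, which encodes a regulator of lysosomal genes, 202 kb from CCND3 (3.03, pileup 20). No peak lay at this distance from MYC or CCND1.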
